A study of Mus musculus with 6 samples.

Results

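DNA replication and nucleotide supply is described here through 35 genes that act at the replication fork, load and fire its helicase, or make the precursors of DNA. They were found by gene symbol in a table of raw read counts per gene, and all 35 were present, 1 row each, out of 54532 gene rows. Every one passed the filter on low counts, so the group includes no unmeasured gene. The RNA came from mouse CD4 T cells, the helper lymphocytes, taken from spleen and lymph nodes of C57BL/6 animals and stimulated for 48 h with plate-bound antibodies to CD3 and CD28 without cytokines. The knockouts carry the genotype label iCD4-PRMT5delta/delta (replicates 1, 4 and 5), and the controls carry iCD4-PRMT5fl/fl (replicates 1, 2 and 4), that is, deleted against floxed alleles of Prmt5, a protein arginine methyltransferase gene. The sources used here do not state what drives the deletion, how old the animals were, or whether animals were pooled. All 6 libraries come from activated cells, and the series calls the samples of a genotype biological replicates.

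A cell copies its DNA once per division. In G1 the origin recognition complex, with Cdc6 and Cdt1, loads the ring-shaped Mcm2 to Mcm7 helicase onto origins. At the start of S phase Cdc45 and the GINS proteins join the ring and switch it on, primase and DNA polymerase alpha lay down primers, polymerases epsilon and delta extend them, and the sliding clamp PCNA holds the polymerases on the template. Ribonucleotide reductase, thymidylate synthase and thymidine kinase keep deoxynucleotides in supply. Most of these genes are classical targets of E2F transcription factors, and a resting T cell that receives antigen and costimulation switches them on before its first division.

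Gene counts per library ranged from 29623513 to 39832588, and the members had between 419 and 34524 counts in any library. Levels are given in CPM, that is, counts scaled to a common library size with TMM factors, so that they can be compared between libraries. Prmt5 itself stood at 41.1, 34.2 and 36.7 CPM in knockouts 1, 4 and 5, against 134, 133 and 98.2 CPM in controls 1, 2 and 4, a log2 fold change of -1.58 (edgeR adjusted p = 0.00312). The column names of the table carry a tag that parts the libraries into set A (knockout 1, controls 1 and 2) and set B (knockouts 4 and 5, control 4). Its meaning is not stated there, nor is that of the ending R2, which only the title of knockout 4 carries. The first principal component of the most variable genes held 42.2% of the variance and separated the sets. The second held 37.3%, with knockouts 1, 4 and 5 at -31.53, 6.59 and -36.15, below controls 1, 2 and 4 at 9.25, 16.57 and 35.28. Because of the split by set, genotype differences below come from the fit with the set as a term unless stated. Those of genes that passed are also given inside each set. CD4 T cell markers summed to between 1420 and 2036 CPM in knockouts and between 1511 and 1725 CPM in controls, CD8 markers to at most 19.6 CPM in any library, and 3 haemoglobin genes had no count. B cell markers (5 genes, 4 tested, 1 past the threshold) summed to 17.6, 4.14 and 19.5 CPM in knockouts and to between 3.24 and 4.87 CPM in controls, and 5 macrophage and monocyte markers to 9.67, 5.82 and 21.1 CPM in knockouts and between 3.81 and 7.38 CPM in controls. The part of these cells in the results was not tested.

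The members were abundant in these cells. Their summed level was 7036, 7472 and 6181 CPM in knockouts 1, 4 and 5, against 7868, 7973 and 7656 CPM in controls 1, 2 and 4, so each knockout lay below every control. Per kilobase of gene length as the table gives it, Pcna, the sliding clamp, was the highest, with a mean level of 435 CPM per kb in knockouts and 512 CPM per kb in controls. The helicase subunits Mcm2 to Mcm7 spanned a narrow band, between 97.6 (Mcm2) and 157 (Mcm5) CPM per kb in knockouts and from 105 (Mcm2) to 174 (Mcm6) CPM per kb in controls. Among nucleotide enzymes, Dut, the dUTPase that keeps uracil out of DNA, stood at 123 CPM per kb in knockouts and 147 CPM per kb in controls. Both subunits of ribonucleotide reductase were close to it, Rrm2 at 112 and Rrm1 at 95.4 CPM per kb in knockouts, against 124 CPM per kb (Rrm2) and 112 CPM per kb (Rrm1) in controls. The lowest levels were those of the factor E2f1 (7.34 CPM per kb in knockouts, 8.75 in controls), Gins3 (8.98 in knockouts, 10.5 in controls), Gins2 (9.23 in knockouts, 10.6 in controls) and the uracil glycosylase gene Ung (10.4 in knockouts, 12.3 in controls). Genes whose proteins form 1 complex could differ in level per length. Gins4 stood at 41.6 CPM per kb in knockouts and 50.5 in controls, several-fold above Gins2 and Gins3. Gins1 was nearer to Gins4, at 31.3 in knockouts and 36.7 in controls. The gap between Gins4 and Gins2 lies partly in the lengths used, 1349 and 3900 bases. Before division by length, Gins4 had 56.2 CPM in knockouts and 68.1 in controls, against 36.0 and 41.3 for Gins2. Gins2 shares 2758 exonic bases with Gse1 on the opposite strand, and whether reads were counted by strand is not stated, so its level is uncertain.

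Activation raised the whole group in both genotypes, by the authors' deposited table. Its fold changes are resting over activated, so negative values mean higher levels in activated cells. In knockouts all 35 members were higher in activated cells at an adjusted p under 0.05 in the authors' deposited table, with a median log2 fold change of -2.62. In controls all 35 were higher too in the authors' deposited table, with a median of -2.82. Over all genes with a value in the authors' deposited table, 25.8% were higher in activated knockout cells and 27.7% in activated control cells, with median fold changes over all genes of 0.24 in knockouts and 0.32 in controls.

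The largest changes in the authors' deposited table belonged to Orc1, a subunit of the origin recognition complex (-5.19 in knockouts, -5.05 in controls), and Mcm10, a scaffold of the helicase (-4.96 in knockouts, -4.44 in controls). The authors' deposited table gave Rrm2 -4.60 in knockouts and -4.42 in controls, and Cdc6 -4.33 in knockouts and -4.18 in controls. Small changes in the authors' deposited table belonged to Gins4 (-0.99 in knockouts, -1.36 in controls), Gins3 (-1.28 in knockouts, -1.63 in controls) and Slbp, which binds the stem-loop of histone mRNA (-1.53 in knockouts, -1.63 in controls). Gins4 had the smallest in both genotypes of the authors' deposited table. In knockouts Gins3 came next and then Pola2 (-1.51, against -1.92 in controls in the authors' deposited table). In controls Slbp (-1.630) and Gins3 (-1.632) came next and were almost equal in the authors' deposited table. The GINS partners differed in this response too: the authors' deposited table gave Gins2 -3.60 in knockouts and -3.99 in controls. By the authors' deposited table the change was smaller in knockouts for 26 members and larger for 9. The same count was not made over all genes. Among members the change differed most in the authors' deposited table for Pold1, the catalytic subunit of DNA polymerase delta, at -1.75 in knockouts and -2.62 in controls. Mcm7 followed in the authors' deposited table, at -2.14 in knockouts and -2.74 in controls. These comparisons use the same activated libraries as the genotype comparison and are not separate evidence for it, and the difference between them was not tested. Between resting controls and resting knockouts the fold changes of all members in the authors' deposited table were at most 0.000217 in size, none with an adjusted p under 0.05, and 3 genes of that table passed. These resting values do not add up with the others: for Mcm10 the activation changes differ by -0.53 between genotypes, against -0.01 between activated controls and knockouts. How the authors estimated them is not stated, so they are not read as the size of a resting difference.

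**Figure D1:**
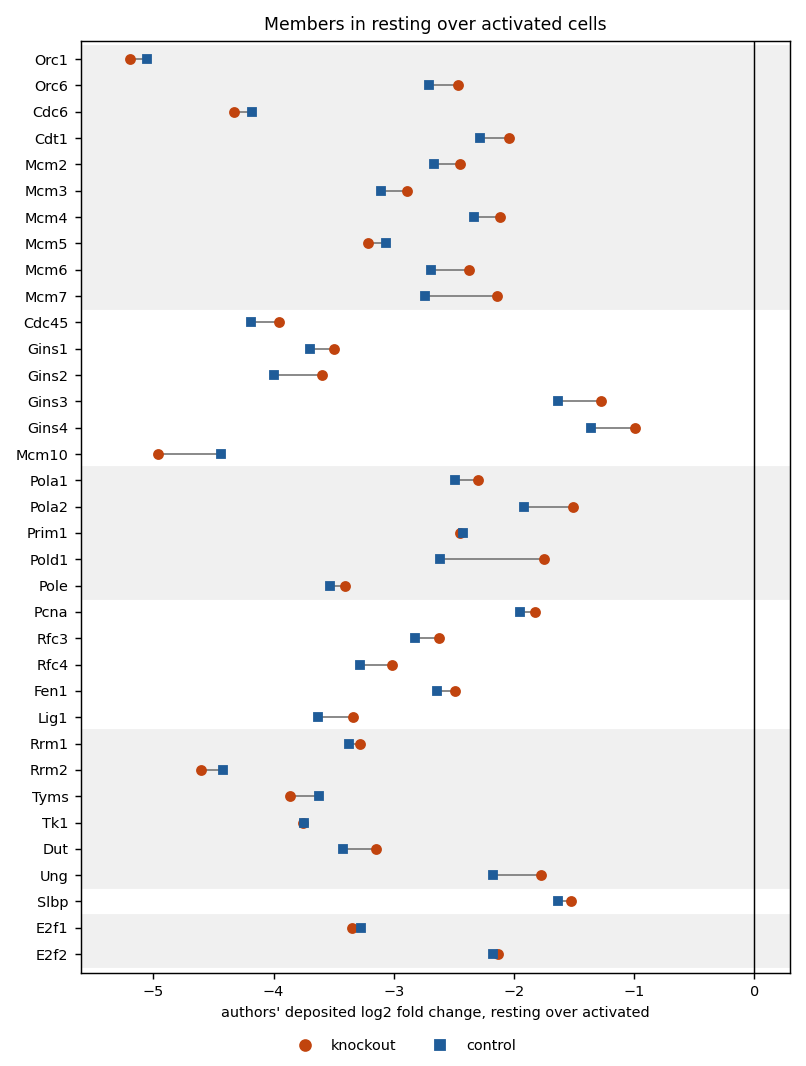
Log2 fold change of resting over activated cells for each of the 35 members (rows, grouped by role in grey and white bands), in knockouts (circles) and controls (squares), as deposited by the authors. All points lie left of 0, from -5.19 for Orc1 to -0.99 for Gins4 in knockouts, and the widest gap between genotypes is that of Pold1.

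Because the members rise together on activation, their promoters were searched for the E2F motif. The window was the 300 bases around the annotated start (250 before, 50 after), from RefSeq on GRCm38.p6, and 30 of the 35 members matched an entry there. The motif words were TTTCCCGC, TTTCGCGC, TTTGCCGC and TTTGGCGC on either strand. They occurred in 12 of the 30 member promoters (40.0%) and in 626 of all 27025 promoters (2.32%). The licensing genes held most of them, with 7 of 9 promoters, against 2 of 4 for polymerases and primase, 1 of 5 for the clamp group and 0 of 6 for nucleotide supply. Where a gene had several entries the first listed was taken, as for Lig1 (of 3) and for Fen1 and E2f2 (of 2 each). The windows of Fen1, Lig1, Mcm5 and E2f2 lie wholly outside the GENCODE M21 genes. Those of Mcm7, Cdc6, Dut and E2f1 lie wholly inside them, past the GENCODE start. Of these, Mcm5, E2f2, Mcm7 and Cdc6 count as matches, so the counts by role, licensing included, are uncertain. The word TTTGAA on either strand, the cell cycle homology region of mitotic genes, occurred in 13.3% of member promoters and 18.1% of all promoters, but in 12 of 16 promoters of a list of proliferation and mitosis genes, of which 1 held the E2F words. A match is a description of the letters and not a bound site. The promoters of Pold1 and Rfc3 are shown because these members passed the genotype test below. That of Mcm7 (1 of 2 RefSeq entries) is shown because it had the largest decrease after Pold1. Orc1 is shown for the strongest activation response among members, and Mcm6 for 2 overlapping words. Capitals mark the E2F words on either strand.

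Pold1, chr7:44548766-44549065, minus strand: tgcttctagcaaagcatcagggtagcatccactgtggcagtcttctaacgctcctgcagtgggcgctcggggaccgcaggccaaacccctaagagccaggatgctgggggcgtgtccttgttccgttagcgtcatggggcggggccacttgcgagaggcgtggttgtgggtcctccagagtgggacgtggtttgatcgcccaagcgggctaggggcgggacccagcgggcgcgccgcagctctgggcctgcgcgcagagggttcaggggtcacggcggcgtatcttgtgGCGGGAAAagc

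Rfc3, chr5:151651159-151651458, minus strand: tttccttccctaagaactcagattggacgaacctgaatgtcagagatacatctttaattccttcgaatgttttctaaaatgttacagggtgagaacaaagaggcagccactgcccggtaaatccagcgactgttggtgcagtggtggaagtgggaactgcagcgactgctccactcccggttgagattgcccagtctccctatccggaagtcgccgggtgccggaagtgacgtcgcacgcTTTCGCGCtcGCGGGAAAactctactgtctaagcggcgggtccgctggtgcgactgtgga

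Mcm7, chr5:138171834-138172133, minus strand: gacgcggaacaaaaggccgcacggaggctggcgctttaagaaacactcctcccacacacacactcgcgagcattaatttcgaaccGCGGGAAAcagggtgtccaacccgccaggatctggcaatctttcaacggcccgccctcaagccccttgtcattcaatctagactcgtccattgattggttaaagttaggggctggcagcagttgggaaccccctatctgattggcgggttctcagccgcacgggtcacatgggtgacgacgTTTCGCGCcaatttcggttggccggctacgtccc

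Orc1, chr4:108579204-108579503, plus strand: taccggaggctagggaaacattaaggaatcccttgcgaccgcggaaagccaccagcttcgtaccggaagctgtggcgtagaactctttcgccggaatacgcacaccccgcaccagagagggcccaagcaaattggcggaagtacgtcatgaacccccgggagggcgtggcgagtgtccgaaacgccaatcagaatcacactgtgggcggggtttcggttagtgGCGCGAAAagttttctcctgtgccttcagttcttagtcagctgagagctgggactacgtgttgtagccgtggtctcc

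Mcm6, chr1:128359656-128359955, minus strand: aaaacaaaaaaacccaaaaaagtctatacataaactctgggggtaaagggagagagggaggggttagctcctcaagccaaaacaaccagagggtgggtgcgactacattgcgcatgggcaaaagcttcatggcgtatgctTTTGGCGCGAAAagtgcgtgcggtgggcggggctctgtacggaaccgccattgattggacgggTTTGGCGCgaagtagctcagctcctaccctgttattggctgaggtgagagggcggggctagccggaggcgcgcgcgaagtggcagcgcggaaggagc

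The words sit near the start in Pold1, where the only match begins 39 bases after it. In Rfc3 a pair of words lies at -10 and 0, almost end to end, and in Orc1 the word lies at -27. Mcm7 has 1 word at -165 and another at 16, counted from a RefSeq start that lies inside the GENCODE gene. Mcm6 has overlapping words at -110 and -106 and a further one downstream.

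Most replication genes lay slightly lower in knockouts than in controls, and few passed the test. With the library set in the model 28 of 35 log2 fold changes (knockout over control) were negative, with a median of -0.22, against 47.9% negative and a median of 0.02 over all 15685 genes tested. Pold1 and Rfc3, a subunit of the clamp loader, fell past an adjusted p of 0.05 (edgeR quasi-likelihood test, Benjamini-Hochberg), which is 2 of 35 members, or 5.71%, against a background of 3.63% of all genes that fell. No member rose past it. On genotype alone, without the set, 0 members and 0% of all genes passed by edgeR (4 members and 1780 genes at an unadjusted p under 0.05; DESeq2 called 1 member, Pold1, and 442 genes), and the member median was -0.23. All knockouts lay below all controls for 9 members (8.68% of all genes) and above them for 0 (9.35%). Without knockout 4 the fit with the set called 8 members, without knockout 5 it called 1, and without control 1, control 2, control 4 or knockout 1 it called 0. Over all genes these fits called 2056, 993, 149, 3, 0 and 0, in the same order, so the counts of members moved with those of the whole table. In bulk RNA, fewer cells in S phase and less of these RNAs per cell cannot be told apart. Scaling to the ERCC spike-ins moved the median of all genes to -0.44, and the members, at -0.685, lay 0.24 below it.

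**Figure D2:**
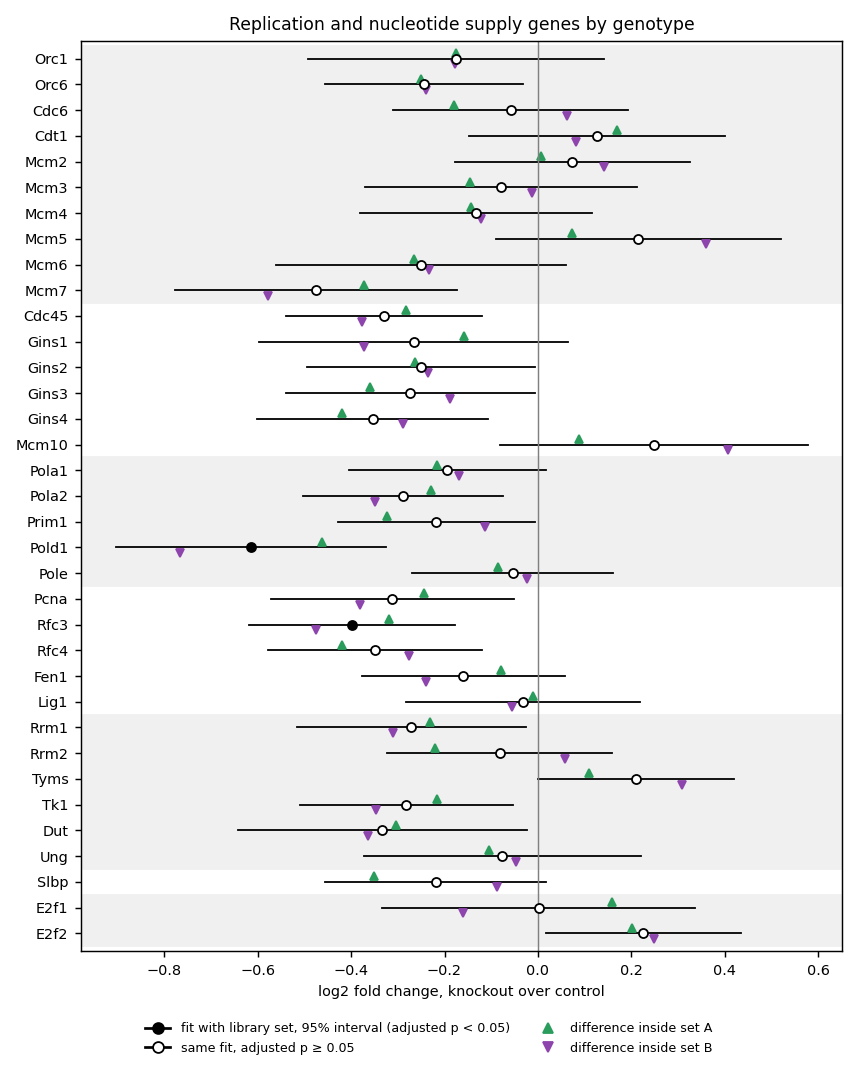
Log2 fold change, knockout over control, of the 35 members (rows, grouped by role), with 95% intervals from the fit with the library set and the differences inside set A (upward triangles) and set B (downward triangles). Pold1 at -0.61 and Rfc3 at -0.40 are the filled points, and most intervals lie between -0.6 and 0.5.

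Among polymerases and primase all 5 members were negative and 1 passed. Pold1 (ENSMUSG00000038644.14, chr7:44532746-44548849 in GRCm38, minus strand) had 134, 123 and 96.0 CPM in knockouts 1, 4 and 5, against 191, 179 and 187 CPM in controls 1, 2 and 4. The controls lay within a narrow range and every knockout lay below them. Pold1 fell by 0.61 on the log2 scale (SE 0.12, 95% interval -0.90 to -0.33, edgeR adjusted p = 0.0381), with a difference of -0.46 inside set A and -0.77 inside set B. On genotype alone its log2 fold change was -0.66 (SE 0.15, edgeR adjusted p = 0.256). The call was lost without control 1, control 2, control 4 or knockout 1, where the edgeR adjusted p was 0.0803, 0.111, 0.282 and 0.0975 and the log2 fold change stayed between -0.79 and -0.47. Pole, the catalytic subunit of the leading-strand polymerase epsilon, stood at the other end of the group. It had 234, 174 and 155 CPM in knockouts, against 255, 243 and 167 CPM in controls, and a log2 fold change of -0.05 (SE 0.09, 95% interval -0.27 to 0.16). Its groups overlapped, and knockout 1 and controls 1 and 2 were the high libraries. The polymerase alpha and primase genes lay between, with Pola2 at -0.29, Prim1 at -0.22 and Pola1 at -0.19, and adjusted p-values from 0.0916 to 0.204 (edgeR). For Pola1 and Pola2 each knockout lay below every control.

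The partner subunits of these polymerases, which are not members and are named after their values were seen, differed among themselves. Pold4, the small accessory subunit of polymerase delta, averaged 31.3 ± 16.4 CPM in knockouts and 48.7 ± 34.0 CPM in controls (SD, 3 libraries each). It had a log2 fold change of -1.06 (SE 0.18, edgeR adjusted p = 0.0273) in the fit with the set, with -0.96 inside set A and -1.15 inside set B. Its levels in the genotypes overlapped, and it was 1.49 higher on the log2 scale in set B than in set A. Pold2, at 0.01 (adjusted p = 0.954), and Pold3, at -0.15 (adjusted p = 0.311, edgeR), did not pass. Pole2, the partner of Pole, had a log2 fold change of -0.51 (SE 0.12, edgeR adjusted p = 0.0492), with -0.47 inside set A and -0.54 inside set B, and also overlapped between genotypes.

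In the clamp, clamp loader and fragment-joining group 1 of 5 members passed and all 5 were negative. Rfc3 (ENSMUSG00000033970.15, chr5:151642756-151651242 in GRCm38, minus strand) had 50.7, 67.4 and 59.3 CPM in knockouts 1, 4 and 5, against 62.6, 64.0 and 88.1 CPM in controls 1, 2 and 4. Knockout 4 lay above controls 1 and 2, so the groups overlapped, and the knockouts were lower than the controls of the same set. Rfc3 fell by 0.40 on the log2 scale with the set in the model (SE 0.09, 95% interval -0.62 to -0.18, edgeR adjusted p = 0.0496), with -0.32 inside set A and -0.48 inside set B. On genotype alone it had -0.28 (SE 0.18, edgeR adjusted p = 0.641). The call sat at the threshold: it was lost without any single library other than knockout 4, with edgeR adjusted p-values of 0.109 and 0.140 without controls 1 and 2, 0.300 without control 4, 0.121 without knockout 1 and 0.0606 without knockout 5. Rfc4, a further loader subunit, had a log2 fold change of -0.35 (SE 0.10, edgeR adjusted p = 0.0714). The other loader genes, Rfc1, Rfc2 and Rfc5, lay at -0.24, -0.27 and -0.29 and did not pass either (edgeR adjusted p = 0.149, 0.0853 and 0.0963).

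Pcna had 607, 751 and 624 CPM in knockouts 1, 4 and 5, against 716, 721 and 895 CPM in controls 1, 2 and 4. Knockout 4 overlapped the controls of set A. Its log2 fold change was -0.31 (95% interval -0.57 to -0.05, edgeR adjusted p = 0.119). Fen1, the flap nuclease that trims Okazaki fragments, had -0.16 (95% interval -0.38 to 0.06). Lig1, the ligase that seals them, was the least changed of the group. It had 214, 151 and 123 CPM in knockouts, against 227, 205 and 142 CPM in controls, with a log2 fold change of -0.03 (SE 0.11, 95% interval -0.28 to 0.22).

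Of the 10 licensing genes none passed, 7 were negative and the median was -0.11. Mcm7 (ENSMUSG00000029730.16, chr5:138164583-138172422 in GRCm38, minus strand) had 350, 353 and 264 CPM in knockouts 1, 4 and 5, against 453, 455 and 461 CPM in controls 1, 2 and 4. Every knockout lay below the controls, which were almost equal to each other. The log2 fold change was -0.48 (SE 0.13, 95% interval -0.78 to -0.17, edgeR adjusted p = 0.0659), with -0.37 inside set A and -0.58 inside set B. DESeq2 called it (adjusted p = 0.0121), and edgeR did so without knockout 4 (adjusted p = 0.0278). The Mcm7 gene overlaps Ap4m1 and Cops6 on the opposite strand by 321 and 64 exonic bases and hosts the Mir25, Mir93 and Mir106b genes.

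The other subunits of the same ring ranged around 0. Mcm5 had 549, 586 and 458 CPM in knockouts, against 513, 531 and 407 CPM in controls, and a log2 fold change of 0.21 (95% interval -0.09 to 0.52). Mcm6 lay at -0.25, Mcm4 at -0.13, Mcm3 at -0.08 and Mcm2 at 0.07, none of them past the threshold (edgeR adjusted p from 0.258 to 0.716 for these and Mcm5). Whether Mcm7 differed from the other subunits was not tested. Cdc6, the ATPase that loads the ring, was the least changed licensing gene. It had 133, 142 and 118 CPM in knockouts, against 149, 151 and 125 CPM in controls, and a log2 fold change of -0.06 (SE 0.11, 95% interval -0.31 to 0.19). Orc1 and Orc6, subunits of the origin recognition complex, had -0.18 and -0.24, and Cdt1, the loading factor, had 0.13.

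Helicase activation genes gave 5 negative values of 6, a median of -0.27 and no call. Gins4 had 49.2, 65.3 and 54.1 CPM in knockouts, against 63.8, 67.7 and 72.9 CPM in controls, and the largest decrease of the group, -0.35 (SE 0.11, edgeR adjusted p = 0.0809). Knockout 4 lay within the range of the controls. Cdc45, which joins the helicase at firing, had 90.6, 102 and 90.3 CPM in knockouts, against 107, 113 and 125 CPM in controls, with no overlap. Its log2 fold change was -0.33 (SE 0.09, 95% interval -0.54 to -0.12, edgeR adjusted p = 0.0662). Gins1, Gins2 and Gins3 lay between -0.27 and -0.25. Mcm10 went the other way in sign, at 0.25 (SE 0.14, 95% interval -0.08 to 0.58, edgeR adjusted p = 0.288). It had 167, 158 and 115 CPM in knockouts, against 156, 158 and 103 CPM in controls. Its groups overlapped, and knockout 5 and control 4 were its low libraries.

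Nucleotide supply and uracil removal also gave no call, with 5 of 6 values negative and a median of -0.18. Dut had 217, 292 and 211 CPM in knockouts, against 261, 275 and 324 CPM in controls, and the largest decrease, -0.33 (SE 0.13, 95% interval -0.64 to -0.02, edgeR adjusted p = 0.149). Knockout 4 lay inside the control range and the other knockouts below it. Tk1, thymidine kinase of the salvage route, had 86.3, 88.2 and 74.2 CPM in knockouts, against 98.6, 102 and 103 CPM in controls. Its groups did not overlap, and its log2 fold change was -0.28 (95% interval -0.51 to -0.05, edgeR adjusted p = 0.111). Rrm1 did not overlap either, at -0.27 (edgeR adjusted p = 0.140), while Rrm2 stood at -0.08. Tyms, thymidylate synthase, had 137, 132 and 128 CPM in knockouts, against 130, 123 and 105 CPM in controls. It was the nucleotide gene with a positive value, 0.21 (SE 0.09, 95% interval 0.00 to 0.42, edgeR adjusted p = 0.172), and control 4 was its lowest library. Ung had 39.6, 32.0 and 24.7 CPM in knockouts, against 43.3, 41.9 and 29.3 CPM in controls, and the smallest change of the role at -0.08 (SE 0.13).

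Slbp had 160, 210 and 194 CPM in knockouts, against 196, 211 and 215 CPM in controls, and a log2 fold change of -0.22 (SE 0.10, edgeR adjusted p = 0.200). The factors E2f1 and E2f2, which drive S phase genes, were not lower once the set was in the model. E2f1 had 31.2, 16.1 and 13.3 CPM in knockouts 1, 4 and 5, against 29.9, 25.9 and 16.5 CPM in controls 1, 2 and 4, and a log2 fold change of 0.00 (SE 0.15, 95% interval -0.33 to 0.34). E2f2 had 80.1, 72.5 and 65.5 CPM in knockouts, against 71.7, 67.6 and 58.1 CPM in controls, and 0.23 (SE 0.09, 95% interval 0.02 to 0.43, edgeR adjusted p = 0.148). Under ERCC scaling both had negative values, as did every other member.

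**Figure D3:**
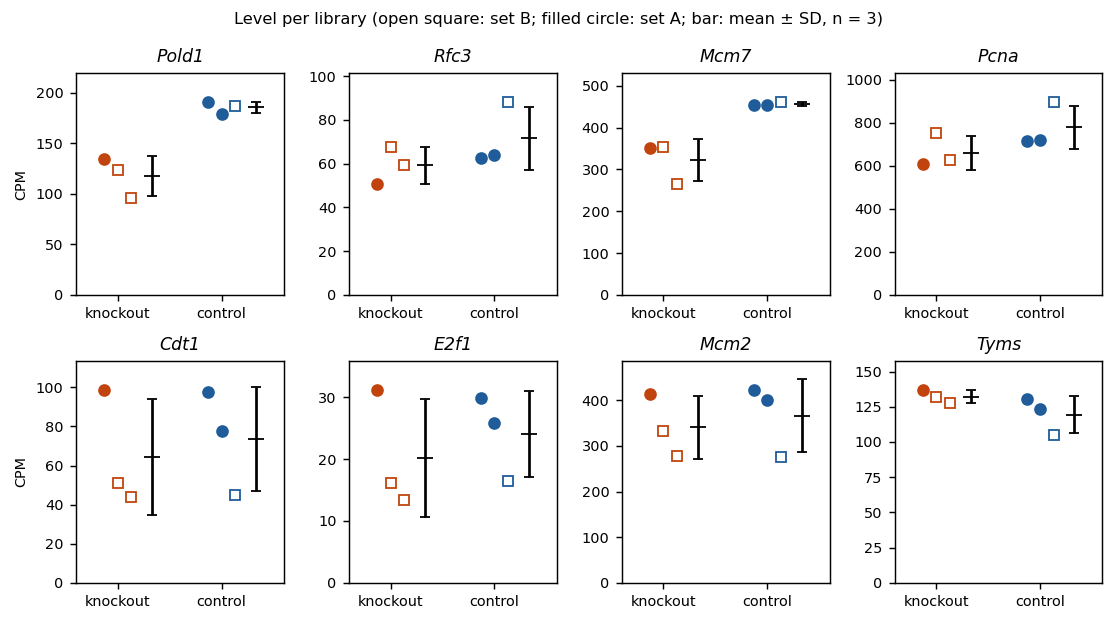
Level in CPM of 8 members in each library, knockouts on the left of each panel and controls on the right, with open squares for set B, filled circles for set A and the mean ± SD of 3 libraries beside them. Pold1 and Mcm7 separate by genotype, with Pold1 at 96.0 to 134 CPM in knockouts against 179 to 191 CPM in controls and Mcm7 at 264 to 353 CPM in knockouts against 453 to 461 CPM in controls, while Cdt1, E2f1 and Mcm2 separate by set.

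More members differed between the library sets than between genotypes. With genotype in the model 9 members differed between the sets by edgeR: 7 were lower in set B, against a background of 16.5% of all genes, and 2 were higher, against 15.7%. As shares of 35 these come to 20.0% and 5.71%, near and below those backgrounds. The lower ones were led by Cdt1, with 51.1, 44.1 and 45.0 CPM in the libraries of set B (knockouts 4 and 5, control 4), against 98.6, 97.6 and 77.8 CPM in those of set A (knockout 1, controls 1 and 2). Its log2 fold change, set B over set A, was -1.01 (SE 0.12, edgeR adjusted p = 0.00209). E2f1 followed at -0.92 (SE 0.15, adjusted p = 0.00432), with no overlap between the sets. The others were Lig1 at -0.62, Pole at -0.54, Ung at -0.51, Mcm2 at -0.51 and Mcm10 at -0.45 (edgeR adjusted p from 0.00570 to 0.0463). Rfc3 at 0.40 (edgeR adjusted p = 0.0172) and Prim1 at 0.30 (0.0378) were higher in set B. Mcm2 had 332, 277 and 276 CPM in set B, against 414, 422 and 401 CPM in set A. Prim1 had 119.6, 119.9 and 129.5 CPM in set B (knockouts 4 and 5, control 4), against 90.2, 109 and 117 CPM in set A (knockout 1, controls 1 and 2), with no overlap. Cdt1 kept its call in every fit without 1 library. E2f1 lost it without knockout 1, and Lig1, Pole and Mcm2 lost it without knockout 1 or control 4. Ung and Rfc3 lost it without knockout 1 or any 1 control, Mcm10 without any library other than knockout 4, and Prim1 without any 1 library.

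**Figure D4:**
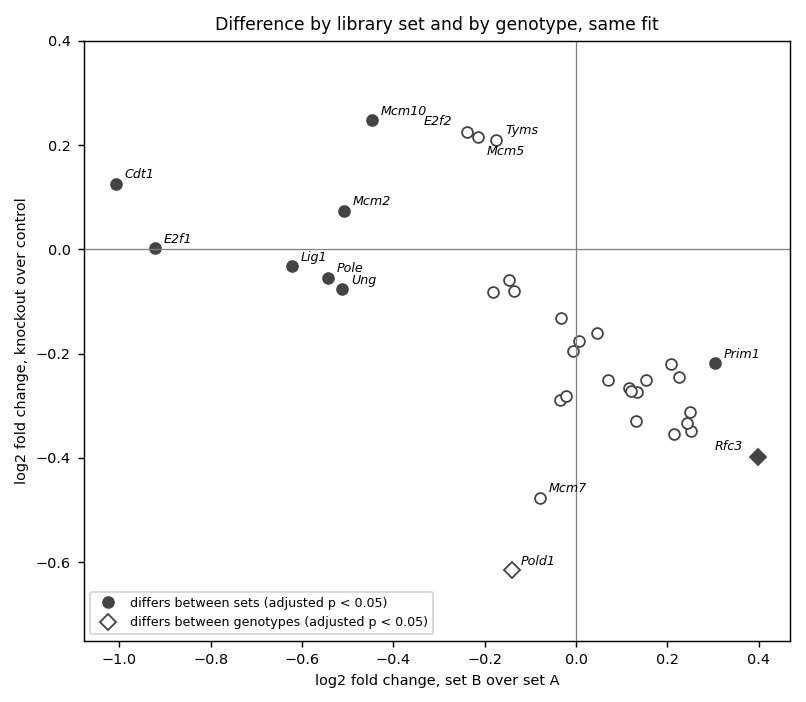
Each point is a member, placed by its log2 fold change of set B over set A (horizontal) and of knockout over control (vertical) in the same fit, filled where it differed between sets and a diamond where it differed between genotypes. Cdt1 and E2f1 lie far left near 0 on the vertical axis, Pold1 lies lowest, and the 2 axes share libraries, so a slant of the points is not a result.

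**Figure D5:**
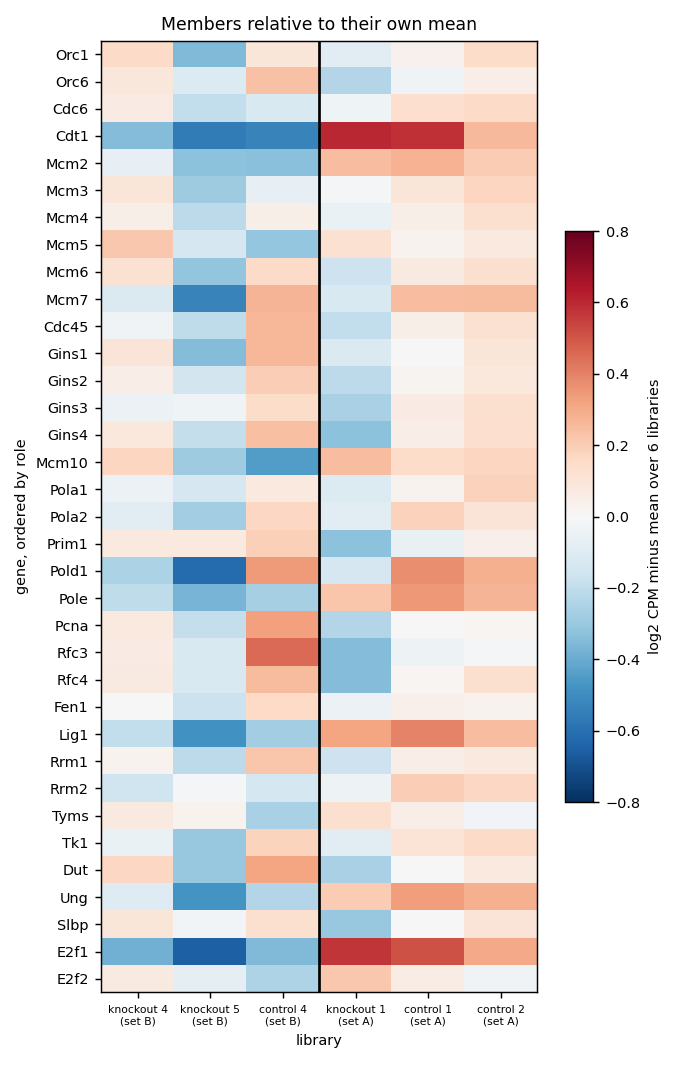
Log2 CPM of each member minus its own mean over the 6 libraries, with set B on the left of the line and set A on its right, and knockouts left of controls in each set. Knockout 5 is below the mean for most members, and Cdt1 and E2f1 change colour between the sets.

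Knockout 5 was the library with the lowest members. The median log2 ratio of the 35 members to the control mean was -0.23 in knockout 1, -0.06 in knockout 4 and -0.33 in knockout 5, against -0.04, 0.01 and 0.02 in controls 1, 2 and 4. Knockouts 1 and 5, which had the lower medians, were also the libraries with the higher B cell and macrophage marker sums. Platelet and megakaryocyte markers (3 genes) summed to 35.8, 10.9 and 27.0 CPM in knockouts 1, 4 and 5, against 9.75 to 15.9 CPM in controls. Dendritic cell markers (5 genes) summed to 2.66, 2.03 and 7.23 CPM in knockouts, against 1.21 to 1.5 CPM in controls, with every knockout above every control. The part of these markers in the difference was not tested. In the interaction test of genotype and set 0 members and 0 of all genes passed (edgeR, 0 members and 996 genes at an unadjusted p under 0.05). Knockout 1 is the single knockout of set A and control 4 the single control of set B, which leaves 2 residual degrees of freedom, so this test does not show whether the genotype difference depends on the set.

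In the authors' deposited table for the same genotype comparison, whose fold changes are control over knockout, 3 of 35 members had an adjusted p under 0.05, all higher in controls, against 2.95% of the genes with a value. Those were Pold1 (0.62, adjusted p = 0.0015), Mcm7 (0.47, adjusted p = 0.00555) and Pola2 (0.30, adjusted p = 0.00992) in the authors' deposited table. Rfc3 had 0.15 in the authors' deposited table with an adjusted p of 0.461. DESeq2 on genotype alone gave Rfc3 -0.28 here, knockout over control. How the authors estimated their fold changes is not stated, so their sizes are not compared with those above. The authors' values come from the same libraries.

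Related lists were counted against the same background, 3.63% of all genes lower past the threshold and 47.9% with a negative value. In the fit with the set 4561 of all 15685 genes had an unadjusted p under 0.05 (edgeR). Of 45 tested further fork and origin genes 3 fell in the fit with the set (edgeR), 0 rose, and the median was -0.14 with 37 negative. They were Pold4, Pole2 and Rnaseh2a, the catalytic subunit of ribonuclease H2, which removes RNA from DNA. Rnaseh2a had 39.9, 44.8 and 39.6 CPM in knockouts, against 56.0, 57.2 and 68.3 CPM in controls, with no overlap and a log2 fold change of -0.60 (SE 0.10, edgeR adjusted p = 0.0263), with -0.50 inside set A and -0.69 inside set B. Of 26 nucleotide synthesis genes 0 passed by edgeR (7 at an unadjusted p under 0.05), with a median of -0.14 and 22 negative, and the smallest p-values belonged to Dctpp1, a dCTP pyrophosphatase (-0.36, edgeR adjusted p = 0.0651), and Dck, deoxycytidine kinase (-0.36, 0.0768). Of 15 E2F and pocket protein genes 0 passed (2 at an unadjusted p under 0.05), with a median of -0.01, 8 negative and 7 positive, a share of negative values (53.3%) near that of all genes. E2f6, a repressor of the E2F family, had -0.37 and Lin37, of the DREAM complex, had 0.34 (edgeR adjusted p = 0.0808 and 0.148). Of 20 proliferation and mitosis genes 1 fell, Top2a, the topoisomerase of dividing cells, with a list median of -0.24 and 18 negative. Top2a had 1085, 1414 and 1258 CPM in knockouts, against 1461, 1644 and 1892 CPM in controls, with no overlap and a log2 fold change of -0.51 (SE 0.12, edgeR adjusted p = 0.0441), with -0.52 inside set A and -0.50 inside set B. Without control 4 or knockout 1 no gene of the whole table passed in the fit with the set, so these calls rest on those libraries too. On genotype alone 0 genes of these 4 lists passed by edgeR. At an unadjusted p under 0.05 there were 8, 1, 1 and 2, against 1780 of all 15685 genes.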

How the data were processed

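Levels of 35 genes were taken from 1 table of the series, which holds 6 libraries of activated CD4 T cells, 3 knockouts and 3 controls. Groups come from the genotype labels and columns were matched by sample title. The deposited counts are raw reads per gene, per the file headers, and gene counts per library ranged from 29623513 to 39832588. Libraries were strand-specific and depleted of ribosomal RNA, per the labels' protocols. Per the submitters' processing notes, STAR, featureCounts, DESeq2, DESeq and the build GRCm38.p3 were involved; role and version are not given there. Beside the counts, the authors deposited a normalized signal (raw count over 1 factor per library), gene lengths, log2 fold changes and adjusted p-values of their own comparisons. The normalized signal was used in no test, and the fold changes and p-values are described only. The table also has 12 per-sample columns that were left aside. The 92 ERCC spike-in rows were not tested as genes and entered no library size, except that their totals set the scaling of the fits with ERCC totals.

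Genes were filtered with filterByExpr (minimum count 10, minimum total 15), which left 15685, scaled with TMM and tested with the edgeR 4.0.16 quasi-likelihood test in R 4.3.3, two-sided, Benjamini-Hochberg over all genes, threshold 0.05. One fit had genotype alone and the other added the library set, and both are reported. Standard errors are the log2 fold change over the square root of F, and intervals are 95%. DESeq2 1.42.0, other scalings, no filter, a replicate block and fits without each library were alternatives. The fits were also run on simulated counts. These had the same spread for every gene, no difference between sets, and changes larger than the members' genotype changes in the main fits. They do not show how the fits do at the sizes reported here. With 3 libraries a group, p-values set each difference against the spread left between these libraries by the fit, with variance estimates partly shared across genes. Coordinates are those of GENCODE M21, where 34 of 35 identifiers matched.

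The members and lists were chosen with earlier results of these data known. Values in every library are given for members past the threshold in a fit and for the largest and smallest change in each role, and Mcm7, Mcm5, Cdc45, Tk1, Tyms, Pcna, Cdt1 and the partner subunits were added after their values were seen.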

Additional observations from a re-analysis of the deposited data

How the results depend on the processing

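With the library set in the model the count of members called varied with the processing: it was 6 by DESeq2 (Mcm7, Cdc45, Gins4, Pold1, Rfc3 and Rfc4), 7 without the low-count filter, and 1 with DESeq2 size factors or total gene counts, with Pold1 called in each. It was 0 with ERCC totals, and between 0 and 8 in the fits without 1 library. The count over all genes was 1020, against 2378 by DESeq2, 2944 without the filter, 393 with ERCC totals and between 0 and 2056 without 1 library. On genotype alone edgeR called 0 members; DESeq2, the fit without the filter and the fit with the replicate block each called 1. Over all genes these called 442, 720 and 768, and ERCC totals 273. The member median was -0.81 on genotype alone and -0.685 with the set under ERCC totals, where the medians of all genes were -0.59 and -0.44; under the remaining settings, the fits without 1 library included, it moved by less than the spread between knockouts. Between the sets 9 members differed, against 2 with ERCC totals and between 1 and 9 without 1 library, and 5045 genes, against 1148 and between 1284 and 5202.

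ERCC totals turned the sign of the positive members, following the shift of all genes. On genotype alone these were Mcm5 (-0.49), Mcm10 (-0.56), Tyms (-0.47) and E2f2 (-0.47), and with the set Cdt1 (-0.32), Mcm2 (-0.38), Mcm5 (-0.24), Mcm10 (-0.20), Tyms (-0.25), E2f1 (-0.45) and E2f2 (-0.23). The difference of Prim1 between the sets became -0.028. Values near 0 also changed sign: with the set E2f1 had -0.003 by DESeq2, -0.004 with its size factors and -0.025 without the filter, and with total gene counts Cdc6 had 0.004, Pole 0.009 and Lig1 0.031. In the fits without 1 library the values that crossed 0 ranged, on genotype alone, from -0.64 to 0.07 for Cdt1, -0.28 to 0.022 for Mcm2, -0.10 to 0.22 for Mcm10 and -0.18 to 0.002 for Prim1. With the set they ranged from -0.19 to 0.04 for Cdc6, -0.003 to 0.12 for Mcm2, -0.10 to 0.027 for Lig1, -0.23 to 0.034 for Rrm2 and -0.18 to 0.15 for E2f1. The cause was not tested.

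The replicate numbers 1 and 4 occur in both genotypes, and the labels do not say that they pair samples. Deviations from the group means correlated at 0.67 between knockout 1 and control 1 and at 0.48 between knockout 4 and control 4, across genes, but also at 0.45 between libraries of the same set with different numbers, so number and set cannot be told apart. With the number as a block, which leaves 1 residual degree of freedom, Pold1 was the member called, and the log2 fold changes of Cdc6 (0.008), Cdt1 (0.10), Mcm2 (0.12), Mcm3 (0.028) and E2f1 (0.014) became positive. Depth was no limit on detecting the members, while 3 libraries a group and their split into sets limit the size of difference that could be called.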
